A study of Mus musculus with 12 samples.

Results

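The 26 genes described here encode the enzymes that build cholesterol from acetyl-CoA, the regulators that sense sterols and switch those enzymes on, and a sterol transfer protein, and they were taken by symbol from the 55487 genes of the count table. They comprise 5 enzymes from acetyl-CoA to the mevalonate phosphates, 4 from there to squalene, 2 that turn squalene into the sterol ring, 9 that turn the ring into cholesterol, 5 genes of the SREBP switch (Srebf1, Srebf2, Scap, Insig1 and Insig2) and Stard4, which carries cholesterol between membranes. All 26 passed the filter on low counts and were tested. The RNA came from E14 Tg2a mouse embryonic stem cells, as 3 independent Pcbp1 knockout (KO) clones and 3 independent control clones, called Scr in the design text and WT in the sample labels. Each clone was sequenced as epiblast-like cells (EpiLC), after 48 h in N2B27 with bFGF (12 ng/ml), activin A (20 ng/ml) and KOSR (1%) on fibronectin, and as naive cells, kept in serum-free N2B27 with LIF and the inhibitors PD0325901 (1 uM) and CHIR99021 (3 uM). The 4 groups of 3 libraries are therefore EpiLC KO, EpiLC WT, naive KO and naive WT, all from the same parental line, and a p-value here measures the spread between clones of that line. How the gene was disrupted is not given in the sources used here.

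Cells make cholesterol through mevalonate, isoprenoid chains and squalene, and side branches of the same route supply prenyl groups and ubiquinone. Its enzymes are switched on together by SREBP, a transcription factor that is held in the endoplasmic reticulum with its escort SCAP and the INSIG proteins while sterols are plentiful, and is released by cleavage in the Golgi when they run low. SREBP from Srebf2 acts mostly on cholesterol genes and SREBP from Srebf1 more on fatty acid genes, and the factors NF-Y and Sp1 bind beside SREBP at many of these promoters.

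The libraries held 27146744 to 42204511 counts. Pcbp1, an RNA-binding protein gene and the target of the knockout, was at 250.3, 302 and 265 CPM (counts scaled to a common library size) in EpiLC KO, against 692, 512 and 591.5 CPM in EpiLC WT, and at 295, 302.5 and 303 CPM in naive KO, against 475, 418 and 474 CPM in naive WT. The groups did not overlap, and the log2 fold change, KO over WT, was -1.14 ± 0.112 (SE; edgeR quasi-likelihood test, adjusted p = 0.000137) in EpiLC and -0.60 ± 0.111 (adjusted p = 0.00599) in naive cells, so RNA of the targeted gene was lower in the KO clones and not absent. In EpiLC against naive cells, all 5 epiblast-like markers rose in both genotypes, and of the 7 naive markers 7 fell in KO clones and 6 in WT clones. Of all genes, 27.1% rose and 28.1% fell in KO clones, and 26.4% rose and 26.3% fell in WT clones.

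Compared per kilobase of exon, Srebf2 and Hmgcs1 stood at the top of the 26 genes in every group. Srebf2 averaged 63.2 ± 3.99 CPM per kb in EpiLC KO, 82.9 ± 7.38 in EpiLC WT, 56.9 ± 2.84 in naive KO and 60.2 ± 7.72 in naive WT (SD, n = 3 clones each). Hmgcs1, the HMG-CoA synthase gene, averaged 99.7 ± 22.2 CPM per kb in EpiLC KO, 74.8 ± 6.9 in EpiLC WT, 45.8 ± 0.709 in naive KO and 47.3 ± 4.5 in naive WT. The ranges of mean ± SD of both genes overlapped in EpiLC WT, and Srebf2 was above Hmgcs1 in both naive groups. Near the bottom were Idi1 (isopentenyl diphosphate isomerase), at 2.37 ± 0.652 CPM per kb in naive KO and 3.08 ± 0.453 in naive WT, and Tm7sf2 (a sterol reductase), at 2.42 ± 0.377 in EpiLC KO and 3.7 ± 0.335 in EpiLC WT. Low counts of some members may be undercounts, because reads that map to several places were not counted. Of all 50-base stretches of a gene's transcripts, 39.1% in Acat2, 26.5% in Fdft1, 26.2% in Fdps and 25.3% in Idi1 also occur in another gene, so their levels are uncertain, while the same stretches are lost in every library. Some of these stretches are shared with a gene that overlaps the member in place, such as Ctsb for Fdft1 and Gm43738 for Fdps (26.7% of exon bases). Those stretches need not map to several places. Exons of Fdft1 (18.8% of their bases, with Ctsb) and Tm7sf2 (12.1%, with Vps51) overlap another expressed gene, and the counting did not use strand.

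To set the promoters beside the values, the 250 bases before each RefSeq start of a gene (build GRCm38.p6) were searched in the 22 members that had a promoter sequence, on both strands. The NF-Y box CCAAT was found in 20 of the 22 members (90.9%), against 40.4% of the 12348 tested genes with a promoter sequence. Among genes with a single RefSeq start it was in 16 of 17 members, against 37% of tested genes. The Sp1 box GGGCGG was also in 20 of the 22, against 60.2% of tested genes, and the E-box CACGTG in 5, against 9.43%. The classic SREBP element TCACNCCAC was in 1 member, Hmgcs1, and in 1.3% of tested genes. No copies of different motifs overlapped. A match is a run of letters and not a measured binding site. Shown are the 150 bases before both the RefSeq start and the gene's start in the count table, 5′ to 3′ on the gene's own strand, for 4 genes that were higher in EpiLC (Hmgcs1 at chr13:119690201-119690350, plus strand; Mvd at chr8:122443423-122443572, minus strand; Lss at chr10:76531438-76531587, plus strand; Nsdhl at chrX:72918371-72918520, plus strand) and 2 that were lower in EpiLC WT (Ebp at chrX:8193513-8193662, minus strand; Insig2 at chr1:121332590-121332739, minus strand). Capitals mark the NF-Y box, read as CCAAT or ATTGG, and in Hmgcs1 the SREBP element, which starts 137 bases before the RefSeq start.
Hmgcs1: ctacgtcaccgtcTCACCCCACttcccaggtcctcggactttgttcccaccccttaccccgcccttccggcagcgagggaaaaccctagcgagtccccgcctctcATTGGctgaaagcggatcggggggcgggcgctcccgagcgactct
Mvd: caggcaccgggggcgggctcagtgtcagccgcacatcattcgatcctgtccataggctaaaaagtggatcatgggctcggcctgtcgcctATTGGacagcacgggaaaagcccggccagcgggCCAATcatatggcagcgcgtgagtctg
Lss: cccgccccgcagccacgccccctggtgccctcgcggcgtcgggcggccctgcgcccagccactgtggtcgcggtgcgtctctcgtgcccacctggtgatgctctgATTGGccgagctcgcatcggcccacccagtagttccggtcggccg
Nsdhl: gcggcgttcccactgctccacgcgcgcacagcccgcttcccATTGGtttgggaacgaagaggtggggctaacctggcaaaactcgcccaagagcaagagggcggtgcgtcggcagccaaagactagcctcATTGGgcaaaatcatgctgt
Ebp: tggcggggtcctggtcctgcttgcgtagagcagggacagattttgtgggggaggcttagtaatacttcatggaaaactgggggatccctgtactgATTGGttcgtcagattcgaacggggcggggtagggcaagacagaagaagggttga
Insig2: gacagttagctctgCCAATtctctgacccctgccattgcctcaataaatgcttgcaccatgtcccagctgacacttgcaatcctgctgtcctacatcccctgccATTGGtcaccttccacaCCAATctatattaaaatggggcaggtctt
Each of these 6 carries the NF-Y box, as nearly all members with a promoter sequence do. Insig2 also has RefSeq starts further downstream, whose windows held the Sp1 box and no NF-Y box. Which start these cells use was not tested.

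**Figure D1:**
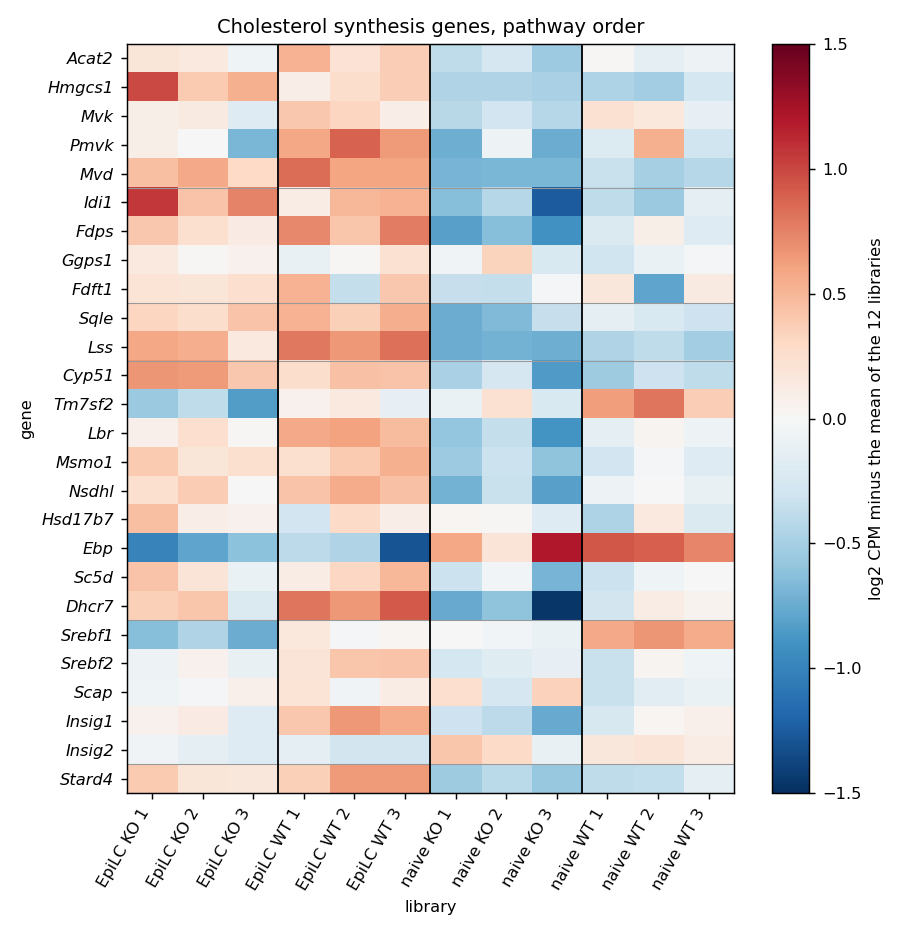
Level of each of the 26 genes (rows, in pathway order, with grey lines between the roles) in each library (columns), as log2 CPM minus the mean of the 12 libraries. Most rows are redder in EpiLC than in naive libraries of the same genotype. Some of them, such as Dhcr7 and Srebf2, are blue in some EpiLC KO libraries and red in some naive WT ones. Ebp is blue in the 6 EpiLC libraries and red in the 6 naive ones. Tm7sf2 and Srebf1 are lower in EpiLC within each genotype, but some EpiLC WT libraries are red and some naive KO libraries blue.

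The passage from naive cells to EpiLC was the larger contrast for this pathway. In WT clones, 15 of the 26 genes rose in EpiLC and 4 fell (edgeR quasi-likelihood test, Benjamini-Hochberg adjusted p under 0.05 over the 18134 genes tested), where 26.4% of all genes rose, 26.3% fell and 52.7% were called in all. In KO clones 16 rose and 3 fell, where 27.1% of all genes rose, 28.1% fell and 55.2% were called. The median log2 fold change of the 26 genes, EpiLC over naive, was 0.50 in KO clones (all genes -0.038) and 0.55 in WT clones (all genes -0.014). The EpiLC and naive ranges did not overlap, with EpiLC higher, for 18 of the 26 in KO clones (31.4% of all genes) and 18 in WT clones (29.3%), and with EpiLC lower for 3 in KO clones (32.9%) and 4 in WT clones (29.9%). In total 14 genes rose and 3 fell in both genotypes. The share of all genes called in both genotypes was not computed, so these joint counts are not shown to be particular to the pathway.

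Among the first enzymes, Acat2 (acetyl-CoA acetyltransferase), Hmgcs1 and Mvd (mevalonate diphosphate decarboxylase) rose in both genotypes. Hmgcs1 was at 573, 381 and 419.8 CPM in EpiLC KO, against 212, 212.5 and 207 CPM in naive KO, and at 311, 347 and 374 CPM in EpiLC WT, against 209.7, 201.5 and 241 CPM in naive WT. Every EpiLC library was above every naive library, with EpiLC KO 1 the highest of the 12. Its log2 fold change was 1.12 ± 0.137 (adjusted p = 2.13e-05) in KO clones and 0.66 ± 0.136 (adjusted p = 0.00132) in WT clones. Mvd was at 86.7, 94.3 and 78 CPM in EpiLC KO, against 39.1, 39.6 and 39.5 CPM in naive KO, and at 114, 95.8 and 95.7 CPM in EpiLC WT, against 50.4, 45 and 47.2 CPM in naive WT. The groups lay far apart in both genotypes, at 1.13 ± 0.104 in KO clones and 1.10 ± 0.104 in WT clones. Of the kinases between them, Mvk (mevalonate kinase) rose in KO clones by 0.39 ± 0.132 (adjusted p = 0.0224), and in WT clones its value was 0.18 ± 0.131 (adjusted p = 0.256). Pmvk (phosphomevalonate kinase) passed in neither genotype, at 0.32 ± 0.258 in KO clones and 0.64 ± 0.258 in WT clones (adjusted p = 0.0515).

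On the way to squalene, Idi1 had the largest rise of the 26 genes in KO clones, at 28.8, 18.5 and 23.1 CPM in EpiLC KO, against 8.86, 10.25 and 5.78 CPM in naive KO. In WT clones it was at 14.9, 19.5 and 19.8 CPM in EpiLC, against 10.6, 9.32 and 12.5 CPM in naive cells. The EpiLC and naive ranges stood apart in both genotypes, at log2 fold changes of 1.50 ± 0.233 (adjusted p = 0.000148) in KO and 0.74 ± 0.23 (adjusted p = 0.016) in WT clones. Fdps, the farnesyl diphosphate synthase gene, rose by 1.04 ± 0.149 in KO and 0.75 ± 0.148 in WT clones. Ggps1, which makes the geranylgeranyl chain of a side branch, did not pass, at 0.038 ± 0.152 in KO and 0.18 ± 0.153 in WT clones. Both enzymes from squalene to the sterol ring rose: Sqle (squalene epoxidase) by 0.92 ± 0.108 in KO and 0.70 ± 0.108 in WT clones, and Lss (lanosterol synthase) by 1.17 ± 0.113 in KO and 1.20 ± 0.113 in WT clones. Lss had the largest rise of the 26 in WT clones, at 181, 164 and 186 CPM in EpiLC WT, against 76.8, 80.7 and 72.7 CPM in naive WT.

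The 9 enzymes after the ring were split. Cyp51 (lanosterol demethylase), Lbr (a sterol reductase that is also the lamin B receptor), Msmo1 (methylsterol monooxygenase), Nsdhl (a sterol dehydrogenase) and Dhcr7 (which acts in the last step of a branch to cholesterol) rose in both genotypes, by 0.71 (Lbr) to 1.10 (Dhcr7) in KO clones and by 0.54 (Nsdhl) to 0.82 (Dhcr7) in WT clones. Ebp, the sterol isomerase gene, went the other way. It was at 11.3, 13.1 and 14.8 CPM in EpiLC KO, against 33.8, 25.9 and 52.2 CPM in naive KO, and at 17.2, 16.6 and 9.24 CPM in EpiLC WT, against 43.15, 42.1 and 37.55 CPM in naive WT. No EpiLC library reached the lowest naive one, and Ebp fell by 1.51 ± 0.264 in both KO clones (adjusted p = 0.000365) and WT clones (adjusted p = 0.000409). Tm7sf2, which encodes a sterol reductase for the same step as Lbr, fell by 0.56 ± 0.176 in KO and 0.58 ± 0.175 in WT clones, while Lbr rose. So the reductase genes of this step moved in opposite directions. Lbr was the more abundant, at 36.6 ± 3.18 CPM per kb in EpiLC KO and 49.2 ± 2.38 in EpiLC WT, beside the values of Tm7sf2 given above. Hsd17b7 (a sterol ketoreductase) passed in neither genotype, and Sc5d (a sterol desaturase) passed in KO clones, at 0.52 ± 0.185 (adjusted p = 0.0304), and not in WT clones, at 0.43 ± 0.185 (adjusted p = 0.0645).

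The 2 SREBP genes also parted. Srebf1 was at 81.6, 92.5 and 75.85 CPM in EpiLC KO, against 127.5, 123 and 118 CPM in naive KO, and at 141, 125 and 129 CPM in EpiLC WT, against 187, 201 and 186 CPM in naive WT. Its ranges stood apart in both genotypes, and it fell by 0.56 ± 0.0928 (adjusted p = 0.000247) in KO and by 0.54 ± 0.0926 (adjusted p = 0.000371) in WT clones. Srebf2 was at 442, 486.5 and 433 CPM in EpiLC KO, against 387, 411 and 428 CPM in naive KO, and at 534, 623 and 629 CPM in EpiLC WT, against 371, 479 and 447.5 CPM in naive WT. It rose in WT clones, by 0.46 ± 0.105 (adjusted p = 0.00264), and its value in KO clones was 0.15 ± 0.105 (adjusted p = 0.24), although the 3 EpiLC libraries there were also above the naive ones. Insig1, which holds SCAP back and is itself an SREBP target, rose by 0.47 ± 0.135 in KO and 0.59 ± 0.135 in WT clones. Its relative Insig2 fell in WT clones, by 0.39 ± 0.15 (adjusted p = 0.0446), and was at -0.33 ± 0.149 (adjusted p = 0.0744) in KO clones. Scap, the escort gene, was the only member with opposite signs, at -0.14 ± 0.144 in KO and 0.29 ± 0.145 in WT clones, and passed in neither. Stard4 rose by 0.75 ± 0.111 in KO and 0.85 ± 0.111 in WT clones.

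Of the calls in WT clones, those of Idi1 (without EpiLC WT 3, adjusted p = 0.0542, or naive WT 2, 0.0658), Tm7sf2 (without EpiLC WT 3, 0.0577, or naive WT 2, 0.0514) and Insig2 (without any 1 of the EpiLC KO, EpiLC WT or naive WT libraries, 0.054 to 0.113) each ended when a library was left out. In KO clones, so did those of Mvk (EpiLC KO 1, 0.0696, EpiLC KO 2, 0.0845, naive KO 1, 0.0548), Sc5d (EpiLC KO 1, 0.131, EpiLC KO 2, 0.0639, naive KO 1, 0.0629, naive KO 3, 0.0956) and Tm7sf2 (EpiLC KO 3, 0.0714, naive KO 2, 0.098). With the clone as a block, Pmvk (0.68, adjusted p = 0.00736) and Sc5d (0.42, adjusted p = 0.0131) also passed in WT clones. Pmvk passed there by DESeq2 (0.0413), with RLE scaling (0.0447), with no filter on low counts (0.00227), with only the 6 WT libraries (0.0453) and without both libraries of WT clone 2 (0.0178). It passed too without EpiLC KO 3 (0.0341), naive KO 2 (0.0389) or naive WT 2 (0.00849), and Sc5d without EpiLC WT 1 (0.0493) or naive KO 3 (0.0496), while the call of Insig2 in WT clones ended with RLE scaling (0.0523) and with no filter (0.189), and that of Mvk in KO clones with no filter (0.0579) and with the GC trend removed (0.07135). Insig2 passed in KO clones without naive KO 3 (0.0183).

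**Figure D2:**
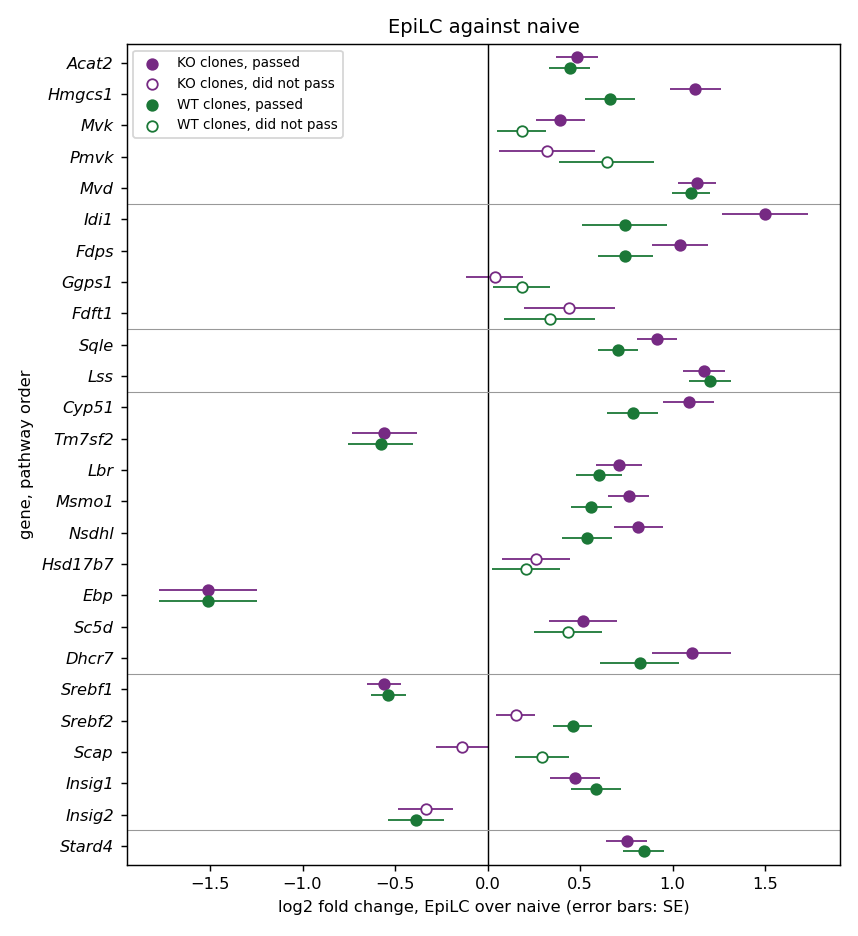
Log2 fold change, EpiLC over naive, of each gene (rows, in pathway order) in KO clones (purple) and WT clones (green). Bars are SE, filled points passed an adjusted p under 0.05. Most points lie right of 0, Ebp lies at -1.51 in both genotypes, and Tm7sf2, Srebf1 and Insig2 lie left of 0.

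In the comparison of the genotypes, all calls were downward. In EpiLC, 6 of the 26 genes fell in KO and 0 rose, where 7.86% of all genes fell, 7.22% rose and 15.1% were called in all. In naive cells, 7 fell in KO and 0 rose, where 4.95% of all genes fell, 4.27% rose and 9.23% were called. The median log2 fold change of the 26, KO over WT, was -0.25 in EpiLC and -0.30 in naive cells, where the median of all genes was 0.00038 in EpiLC and 0 in naive cells. The sign was negative for 20 genes in EpiLC, for 22 in naive cells and for 19 in both. The KO and WT ranges did not overlap, with KO lower, for 12 genes in EpiLC (17.2% of all genes) and for 14 in naive cells (15.3%), and with KO higher for 1 (16.1%) and 0 (15.1%). Because the RNA is from bulk cultures, less RNA per cell and fewer cells of a kind cannot be told apart.

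Tm7sf2, Lbr and Srebf1 fell in both conditions. Srebf1 had the smallest p-value of the 26 genes in each, from the levels given above: its 3 EpiLC KO libraries lay below all 3 EpiLC WT libraries, and its 3 naive KO libraries below all 3 naive WT libraries. The log2 fold change was -0.66 ± 0.0929 (adjusted p = 0.000944) in EpiLC and -0.64 ± 0.0927 (adjusted p = 0.00146) in naive cells, and with any 1 of the 12 libraries left out it still passed (adjusted p at most 0.00693 in EpiLC and 0.00681 in naive cells). Across conditions, the naive KO range of 118 to 127.5 CPM overlapped the EpiLC WT range of 125 to 141 CPM. Lbr was at 169, 191 and 162 CPM in EpiLC KO, against 237, 244 and 222 CPM in EpiLC WT, and at 107, 125 and 86.3 CPM in naive KO, against 145, 165 and 152 CPM in naive WT. The ranges stood apart in both conditions, at -0.43 ± 0.124 (adjusted p = 0.036) in EpiLC and -0.54 ± 0.124 (adjusted p = 0.0186) in naive cells. Tm7sf2 was at 10.8, 12.2 and 8.93 CPM in EpiLC KO, against 16.6, 17.6 and 14.7 CPM in EpiLC WT, and at 14.9, 18.7 and 13.6 CPM in naive KO, against 24.7, 27.8 and 20.55 CPM in naive WT. Here too the ranges were separate, at -0.61 ± 0.177 (adjusted p = 0.036) in EpiLC and -0.63 ± 0.176 (adjusted p = 0.0413) in naive cells.

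Of the other SREBP regulators, Srebf2 and Insig1 were called in EpiLC and none in naive cells, and none of the 4 passed the test of the difference between the conditions (adjusted p from 0.4225 for Scap to 0.954 for Insig2). Srebf2 fell in EpiLC KO, by 0.39 ± 0.105 (adjusted p = 0.0265), with all 3 EpiLC KO libraries below the EpiLC WT ones. With each library's GC trend removed, a choice made after seeing the data, its value was -0.19 (adjusted p = 0.295). In naive cells its KO and WT ranges overlapped and the value was -0.082 ± 0.105 (adjusted p = 0.69). Insig1 was at 134, 139 and 112 CPM in EpiLC KO, against 169.5, 202 and 189 CPM in EpiLC WT, and at 103, 97.8 and 75.9 CPM in naive KO, against 108, 130.3 and 134.5 CPM in naive WT. The ranges stood apart in both, and the call was made in EpiLC, at -0.54 ± 0.135 (adjusted p = 0.0193), and missed in naive cells, at -0.43 ± 0.135 (adjusted p = 0.0678), where it passed by DESeq2 (0.039), with no filter on low counts (0.0313) and with the GC trend removed (0.013). Scap was at -0.093 ± 0.144 in EpiLC and 0.34 ± 0.145 in naive cells, and Insig2 at 0.11 ± 0.15 in EpiLC and 0.053 ± 0.149 in naive cells, none of which passed.

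**Figure D3:**
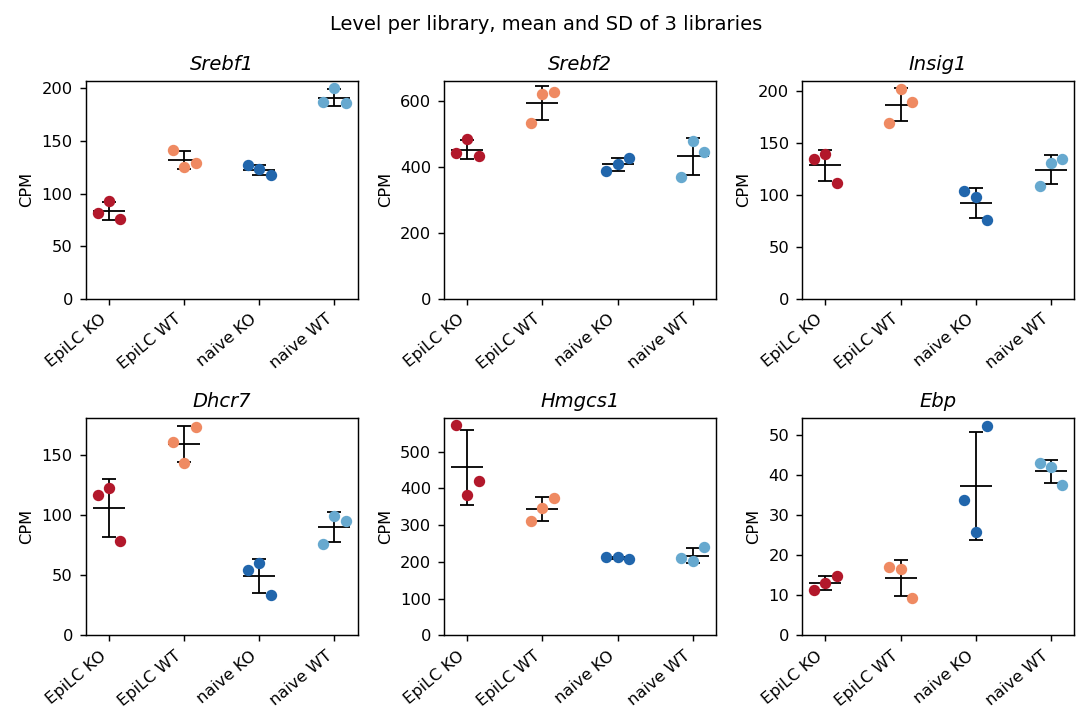
CPM of 6 genes in each library (points) with the mean and SD of the 3 clones (bars), in EpiLC KO, EpiLC WT, naive KO and naive WT. Srebf1 is lower in KO than in WT in both conditions, Srebf2 is at 433 to 486 CPM in EpiLC KO against 534 to 629 CPM in EpiLC WT, and Ebp is lower in EpiLC than in naive cells in both genotypes.

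In naive cells, the remaining calls were 4 enzymes. Dhcr7 was at 54.3, 60.5 and 33.4 CPM in naive KO, against 75.8, 99.3 and 95.1 CPM in naive WT, and fell by 0.87 ± 0.213 (adjusted p = 0.0247), with naive KO 3 the lowest library. In EpiLC it was at 117, 123 and 78.7 CPM in KO, against 161, 144 and 173 CPM in WT, which gave -0.59 ± 0.211 and did not pass (adjusted p = 0.0815). In both conditions KO and WT stood apart. Fdps was at 11, 12.5 and 10.3 CPM in naive KO, against 16.7, 20.7 and 17 CPM in naive WT, and fell by 0.68 ± 0.149 (adjusted p = 0.0145). Nsdhl, at 31.05, 40.3 and 28.9 CPM in naive KO, against 48.15, 50.9 and 47 CPM in naive WT, fell by 0.54 ± 0.134 (adjusted p = 0.0255), and Mvk by 0.47 ± 0.132 (adjusted p = 0.042). In EpiLC these 3 were at -0.39 ± 0.147 for Fdps, -0.26 ± 0.133 for Nsdhl and -0.26 ± 0.131 for Mvk, and did not pass.

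In EpiLC the remaining call was Pmvk, at 49.9, 47 and 29.3 CPM in EpiLC KO, against 69.95, 86.8 and 73.3 CPM in EpiLC WT. The ranges stood apart, and the gene fell by 0.87 ± 0.259 (adjusted p = 0.0411). In naive cells clone 2 was the highest of its group in both genotypes, with 28.35, 44.6 and 28 CPM in naive KO, against 40.8, 68.2 and 38.3 CPM in naive WT, and the value of -0.54 ± 0.259 did not pass (adjusted p = 0.226). Hmgcs1 was the only gene of the 26 whose KO libraries all lay above the WT libraries, and this was in EpiLC. Its value there, 0.41 ± 0.136, missed the threshold (adjusted p = 0.0588), and in naive cells it was -0.046 ± 0.136. Sqle, Lss, Acat2, Mvd and Msmo1 had negative values in both conditions, between -0.12 and -0.35, and none passed.

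The KO calls rested on narrow margins except that of Srebf1. In EpiLC, Insig1 missed the threshold without EpiLC KO 1 (adjusted p = 0.0502), EpiLC KO 3 (0.0726) or EpiLC WT 3 (0.0519), and Srebf2 without EpiLC KO 1 (0.089), EpiLC KO 3 (0.0842), EpiLC WT 2 (0.0516) or EpiLC WT 3 (0.0817). Lbr missed it without EpiLC KO 1 or 3, EpiLC WT 1, 2 or 3, naive KO 1 or naive WT 3 (0.0541 to 0.113), Tm7sf2 without EpiLC KO 1 or 3, EpiLC WT 1, 2 or 3, naive KO 1 or naive WT 1 (0.0511 to 0.118), and Pmvk without any 1 of the EpiLC libraries or naive KO 1 (0.0535 to 0.13). In naive cells, Fdps (0.0569) and Lbr (0.0561) missed it without naive KO 1, and Dhcr7 without naive KO 1 (0.0568), naive WT 2 (0.0587) or naive WT 3 (0.068). Tm7sf2 missed it without naive KO 1 or 3, naive WT 1 or 2, or EpiLC KO 1 (0.0573 to 0.134), Nsdhl without naive KO 1 or 3 or naive WT 1, 2 or 3 (0.0501 to 0.0993), and Mvk without any 1 naive KO library, naive WT 1 or 2, or EpiLC KO 1 or 2 (0.0533 to 0.125). Left-out libraries also added calls: Hmgcs1 as higher (without EpiLC KO 2, 0.0302), Dhcr7 (naive KO 3, 0.0356), Fdps (EpiLC WT 2, 0.0436) and Stard4 (EpiLC WT 1, 0.0435) in EpiLC, and Sqle (naive KO 3, 0.00869, or EpiLC WT 2, 0.0451), Insig1 (naive WT 1, 0.0434) and Scap as higher (naive KO 2, 0.0439) in naive cells. In these leave-outs the number of the 26 genes called ran from 1 to 7 in EpiLC and from 1 to 8 in naive cells. The share of all genes called in each leave-out is not given here. KO clone 3 was the lowest of its group for 18 of the 26 genes in EpiLC and for 19 in naive cells. For how many of all genes it was the lowest was not computed, so this is not shown to be particular to the members.

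**Figure D4:**
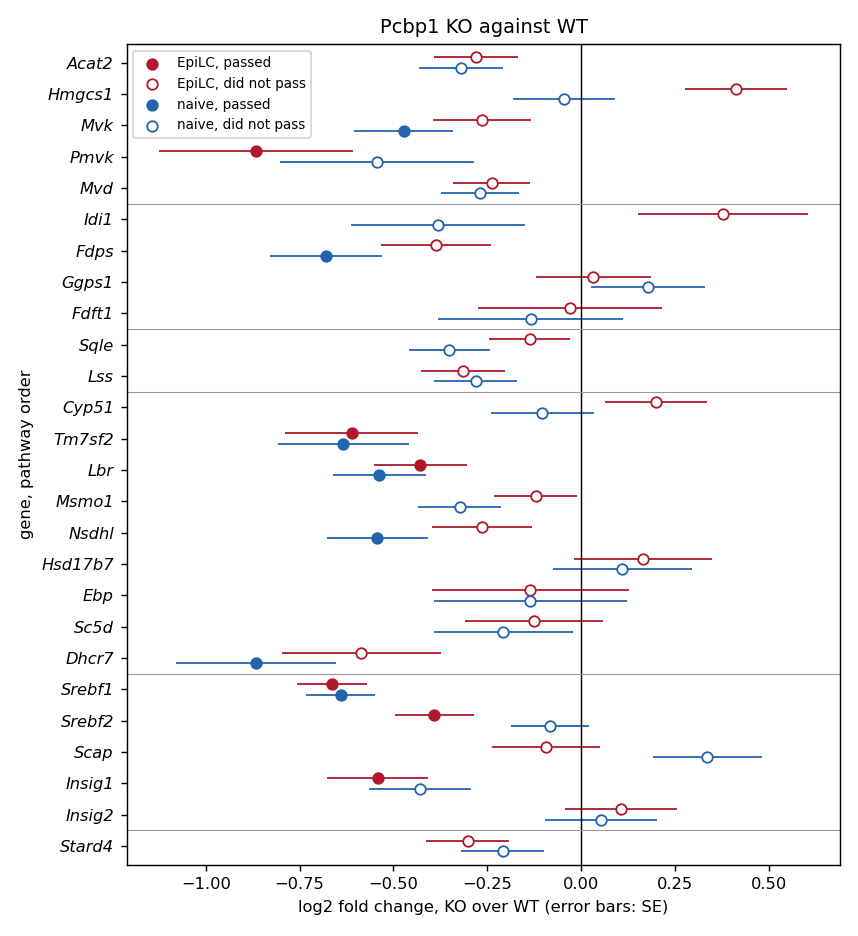
Log2 fold change, KO over WT, of each gene (rows, in pathway order) in EpiLC (red) and naive cells (blue). Bars are SE, filled points passed an adjusted p under 0.05. Every filled point lies left of 0, and Tm7sf2, Lbr and Srebf1 are filled in both conditions.

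The difference between the conditions was tested directly, as the log2 fold change of KO over WT in EpiLC minus that in naive cells. By edgeR's quasi-likelihood test 0 of the 26 genes passed, where 0.381% of all genes did. Without adjustment 2 had a p under 0.05, Idi1 at 0.76 ± 0.324 (adjusted p = 0.363) and Hmgcs1 at 0.46 ± 0.192 (adjusted p = 0.349), and DESeq2 called 0. So a call in EpiLC and a miss in naive cells, as for Srebf2 (-0.31 ± 0.148, adjusted p = 0.427) or Pmvk (-0.32 ± 0.364, adjusted p = 0.784), is not shown to be a difference between the conditions. The values ran from -0.43 ± 0.205 for Scap to the 0.76 of Idi1. For Srebf1 the difference was -0.023 ± 0.131, on values of -0.66 in EpiLC and -0.64 in naive cells.

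Fdft1, the squalene synthase gene on chromosome 14, had clone-to-clone values that set it apart. It was at 218, 215 and 225 CPM in EpiLC KO, against 271.5, 148 and 251 CPM in EpiLC WT, and at 149, 148 and 187 CPM in naive KO, against 214, 109 and 209 CPM in naive WT. WT clone 2 was low in both conditions. The 79 tested genes within 5 Mb of Fdft1 were low in the same clone, with a median of -0.62 in EpiLC and -0.63 in naive cells on the log2 scale, relative to the mean of the group. With all libraries, Fdft1 did not pass in KO against WT, at -0.028 ± 0.245 in EpiLC and -0.13 ± 0.246 in naive cells, nor in EpiLC against naive, at 0.44 ± 0.246 in KO and 0.34 ± 0.246 in WT clones. Without both libraries of WT clone 2, a choice made after seeing these values, Fdft1 fell in naive KO by 0.39 (adjusted p = 0.0444) and rose in EpiLC in KO clones by 0.44 (adjusted p = 0.00238). With the clone as a block it rose in EpiLC in both KO (0.48, adjusted p = 0.00171) and WT clones (0.34, adjusted p = 0.014). Leaving out a single library of WT clone 2 also made a call, for KO clones without naive WT 2 (0.47, adjusted p = 0.0471) and for WT clones without EpiLC WT 2 (0.56, adjusted p = 0.0495). What lowered this segment in WT clone 2 was not tested.

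**Figure D5:**
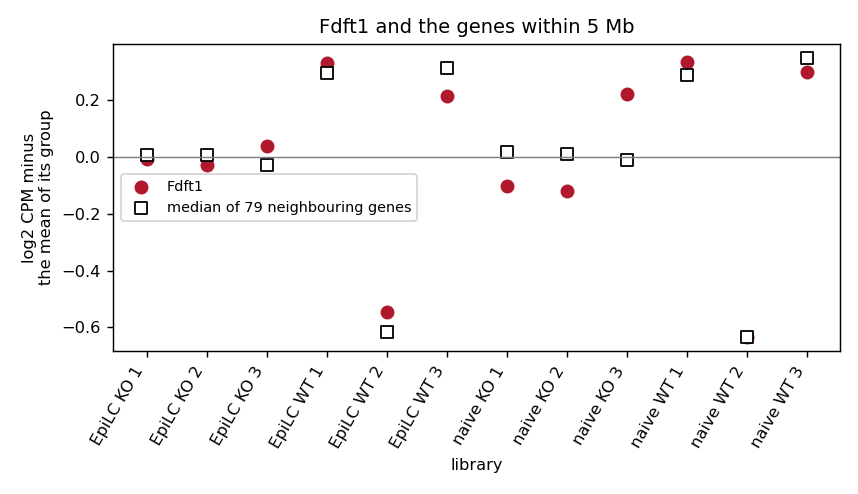
Fdft1 (filled circles) and the median of the 79 tested genes within 5 Mb of it (open squares), as log2 CPM minus the mean of the group, in each library. Both lie near -0.6 in the 2 libraries of WT clone 2 and at 0.2 or above in the other 4 WT libraries.

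Genes around the pathway were read from lists chosen alongside the members. Of 9 genes that process SREBP or sense sterols in the endoplasmic reticulum, among them the Golgi proteases that release it, none was called by edgeR's quasi-likelihood test in KO against WT in either condition (1 in EpiLC and 0 in naive cells at an unadjusted p under 0.05), and the medians were 0.093 in EpiLC and 0.051 in naive cells. Of 18 fatty acid synthesis genes, 4 were lower in EpiLC KO and 5 in naive KO, and none was higher, with medians of -0.29 in EpiLC and -0.24 in naive cells. Beside both lists, 7.86% of all genes fell and 7.22% rose in EpiLC KO. In naive KO 4.95% of all genes fell and 4.27% rose. Scd1, which makes monounsaturated fatty acids, averaged 189 ± 4.39 CPM in EpiLC KO, against 311 ± 15.1 CPM in EpiLC WT (-0.72 ± 0.143, adjusted p = 0.00633), and 297 ± 69.8 CPM in naive KO, against 531 ± 51.9 CPM in naive WT (-0.84 ± 0.143, adjusted p = 0.00373). Aacs, which activates acetoacetate for lipid synthesis, also fell in both, by 0.37 ± 0.109 in EpiLC and 0.84 ± 0.11 in naive cells. So did Fads1, a desaturase, by 0.46 ± 0.112 in EpiLC and 0.39 ± 0.112 in naive cells (adjusted p = 0.0493). Fasn, the fatty acid synthase, fell in naive KO by 0.62 ± 0.147 and was at -0.44 ± 0.147 in EpiLC (adjusted p = 0.0619), and Fads2, another desaturase, fell in naive KO by 1.17 ± 0.178 and was at -0.39 ± 0.175 in EpiLC (adjusted p = 0.154). Tecr, a reductase of fatty acid elongation, fell in EpiLC KO by 0.82 ± 0.112 and was at -0.26 ± 0.111 in naive cells (adjusted p = 0.18).

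Of 12 genes of the liver X receptor (LXR) and of sterol efflux, 5 fell and 0 rose in KO in each condition. Of all genes, 7.86% fell in EpiLC KO and 4.95% in naive KO. Scarb1, the HDL receptor, averaged 50.7 ± 1.37 CPM in EpiLC KO, against 98.5 ± 6.03 CPM in EpiLC WT (-0.96 ± 0.124, adjusted p = 0.000591), and 67.2 ± 7.85 CPM in naive KO, against 99.5 ± 16 CPM in naive WT (-0.57 ± 0.123, adjusted p = 0.0139). Abca2, a lipid transporter, fell by 1.56 ± 0.244 in EpiLC and 1.12 ± 0.241 in naive cells. Nr1h2, which encodes an LXR and can be activated by sterols, fell by 0.76 ± 0.0998 in EpiLC and 0.40 ± 0.0994 in naive cells. Rxra, the partner receptor, fell in naive cells by 1.14 ± 0.211 and was at 0.36 ± 0.207 in EpiLC (adjusted p = 0.2695), and the difference between the conditions was 1.50 ± 0.295 (adjusted p = 0.0564). Among 13 genes of sterol transport and storage, 1 fell in EpiLC KO (Gramd1a, -0.56 ± 0.12, against 0.39 ± 0.119 in naive cells, adjusted p = 0.0602), and in naive KO 1 rose (Osbpl1a, 0.46 ± 0.121) and 1 fell (Lipa, -1.12 ± 0.204). These counts are near the shares of all genes, 4.27% of which rose in naive KO, so they are no result particular to this list. For Gramd1a the difference between the conditions passed edgeR's quasi-likelihood test, at -0.95 ± 0.169 (adjusted p = 0.0394). It was the only 1 of the 13 to do so, where 0.381% of all genes passed. Of 13 genes that use isoprenoids in side branches, 2 rose in EpiLC KO, Icmt (0.66 ± 0.115), which methylates prenylated proteins, and Coq2 (0.73 ± 0.2), of ubiquinone synthesis, and 0 were called in naive KO (1 at an unadjusted p under 0.05). Of all genes, 7.22% rose in EpiLC KO.

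Markers that are no members also moved with genotype, and their part in the values of the cholesterol genes was not tested. Beside the counts below, 7.22% of all genes rose and 7.86% fell in EpiLC KO, and 4.27% rose and 4.95% fell in naive KO. Of 8 tested endoderm markers, out of 11, 7 rose in EpiLC KO, and the summed level of the 11 was 35.4 to 47 CPM in EpiLC KO against 7.36 to 14.45 CPM in EpiLC WT. A marker could pass the low-count filter through EpiLC KO alone, the group where these are high, so the count of 7 is no independent evidence. In naive cells 0 of the 8 passed by edgeR's quasi-likelihood test and 6 had an unadjusted p under 0.05, with a median log2 fold change of -1.31 and sums of 1.92 to 4.74 CPM in naive KO against 2.98 to 13.8 CPM in naive WT. The naive values thus rest on few counts. Of 8 ATF4 response genes, 6 fell in EpiLC KO, with a median of -1.48 and sums of 1007 to 1165 CPM in EpiLC KO against 1981 to 3012 CPM in EpiLC WT. In naive cells 1 of them fell, Shmt2 (-0.81 ± 0.208, adjusted p = 0.0298), the list had a median of -0.49, and the sums were 1969 to 2606 CPM in naive KO against 2360 to 3315 CPM in naive WT. Of 4 tested markers of fibroblasts and feeder cells, out of 6, Col1a1 rose in naive KO (1.58 ± 0.388, adjusted p = 0.0244), at 5.95 ± 2.43 CPM in naive KO against 1.99 ± 0.4745 CPM in naive WT. The median log2 fold change of the 4 was -1.26, so others of them had negative values, and 2 had an unadjusted p under 0.05. The 6 markers summed to 4.74 to 8.525 CPM in naive KO against 2.84 to 3.65 CPM in naive WT, which is low. Such markers, too, could pass the filter through a single group. In EpiLC KO none of the 4 passed by edgeR's quasi-likelihood test (1 at an unadjusted p under 0.05).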

How the data were processed

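Poly-A RNA was made into TruSeq Stranded mRNA libraries, per the labels' protocols, and the values deposited for the 12 libraries are whole read counts, without any scaling. The authors counted with featureCounts 2.0.1 on GENCODE vM25 exons, per the file headers, whose command names no strand, pairing or multi-mapping option; fastp, FastQC, STAR, DESeq2 and the build GRCm38 (mm10) are listed in the submitters' processing notes without versions. Totals were 27146744 to 42204511 counts, and 346 of 55487 rows without a symbol match held at most 0.0312% of counts.

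From the counts, edgeR 4.0.16 (R 4.3.3, limma 3.58.1) was run with TMM scaling and filterByExpr (minimum count 10, total 15), which kept 18134 genes. A quasi-likelihood model with 4 group means (8 residual degrees of freedom) gave log2 fold changes, SE (from the F statistic) and p-values adjusted by Benjamini-Hochberg over all genes tested, called under 0.05. The code was tested on simulated data. CPM used TMM-scaled totals, and CPM per kb the deposited exon length. Alternatives were RLE scaling, no filter, DESeq2 1.42.0, 6-library fits, a replicate block, leaving out each library and, added later, leaving out WT clone 2 and removing each library's GC trend (18111 genes with a GC value). Libraries of the same genotype and number deviated together (correlations of 0.145 to 0.264), and numbers were taken to pair clones across conditions. KO and WT of the same number did not (-0.266 to 0.00374), but the lowest of these was as large in size, so the correlations alone do not establish the pairing. The main fit had no clone term, so its transition and interaction p-values treat both libraries of a clone as independent. The same holds for the spread behind its KO against WT p-values, which was estimated from all 12 libraries. No replicates agreed within counting noise. Every member could be named; other genes were named as the target, as markers, as overlapping genes, or as up to 4 called genes of a list with the smallest adjusted p. Members and lists were chosen with earlier results of these data known.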

Additional observations from a re-analysis of the deposited data

How the results depend on the processing

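The KO against WT counts depended on the fit. The share of all genes called in each alternative fit is not given here, so no count below shows a change particular to the members. Against 7 members called in naive cells, 4 were called with only the 6 libraries compared, 4 with the replicate block, 4 without both libraries of WT clone 2, and 1 to 8 in the leave-one-out fits, while DESeq2 and removal of the GC trend gave 9 and no filter 8. Against 6 called in EpiLC, the replicate block gave 2, only the 6 libraries 4, no filter 8 (with Hmgcs1 higher, 0.40, adjusted p = 0.0237) and the leave-one-out fits 1 to 7. The cause was not tested; the fits with fewer calls use fewer libraries or residual degrees of freedom. The block pairs KO with WT clones that share only a number. The transition counts ran from 16 to 22 members in WT clones and from 17 to 20 in KO clones over all fits, and the interaction gave 0 in each. Srebf1 kept its 4 calls in every alternative.

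Removing each library's GC trend ended the KO calls of Srebf2 (-0.19, against -0.39 without this correction), Pmvk (-0.70, against -0.87) and Tm7sf2 (-0.43, against -0.61) in EpiLC and of Mvk (-0.32, against -0.47) and Tm7sf2 (-0.53, against -0.63) in naive cells, and added Msmo1, Nsdhl and Stard4 in EpiLC and Insig1, Msmo1, Sqle and Acat2 in naive cells, all lower. Signs turned for values that had not passed. With the GC trend removed, the log2 fold change of KO over WT was -0.15 for Ggps1, 0.10 for Fdft1 and 0.087 for Scap in EpiLC, and 0.052 for Srebf2 and -0.041 for Insig2 in naive cells; with the replicate block it was 0.038 for Fdft1 in EpiLC. Leaving out 1 library, it ran from -0.046 to 0.13 for Ggps1, -0.25 to 0.13 for Fdft1 and -0.38 to 0.014 for Ebp in EpiLC, and from -0.13 to 0.0069 for Hmgcs1, -0.025 to 0.26 for Ggps1, -0.28 to 0.0087 for Cyp51, -0.051 to 0.25 for Hsd17b7, -0.49 to 0.045 for Ebp and -0.079 to 0.16 for Insig2 in naive cells; EpiLC over naive in KO clones ran from -0.048 to 0.24 for Ggps1 and -0.27 to 0.00805 for Scap. With 3 clones a group, many member changes of about 0.3 on the log2 scale stood near the threshold.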
